A study of Arabidopsis thaliana with 8 samples.

Results

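The genes described here encode parts of the machinery that separates chromosomes and builds the new cell wall in dividing plant cells. They are the Aurora kinases AUR1 (AT4G32830), AUR2 (AT2G25880) and AUR3 (AT2G45490), the spindle checkpoint genes BUBR1 (AT2G33560), BUB3.1 (AT3G19590) and MAD2 (AT3G25980), and AT4G14330, entered as a phragmoplast kinesin. These 7 genes were chosen by locus. The annotation of the array gave 1 probe set to each of 6 of them and listed none for MAD2, which was not analysed here. In all 13286 genes had a probe set of their own. All 6 passed the filter on low signal and are among 14005 tested probe sets, of 22746 on the array that are not controls.

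Transcript levels were measured on Affymetrix ATH1 arrays, which report 1 signal per probe set, in vegetative shoot apices of Arabidopsis thaliana dissected together with the leaf primordia. The genotypes were 35S:GIF1, in which the broadly active 35S promoter drives the co-activator GIF1, rGRF3, which the labels call an overexpressor of the transcription factor GRF3, rGRF3x35S:GIF1, which carries both and is called the double line here, and wild-type Col-0. In published work rGRF3 is a form of GRF3 that the microRNA miR396 does not cleave. Plants of all genotypes were 20 days old and grew on soil at 23 °C with 8 h of light and 16 h of dark. There were 2 arrays per genotype, which the sample titles letter A and B, and the labels say neither what the letters mark nor how many independent transgenic lines were used.

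Aurora kinases are serine/threonine kinases of mitosis. In Arabidopsis AUR1 and AUR2 are close relatives found at the spindle and the forming cell plate, while AUR3 is found at centromeres. The spindle checkpoint delays chromosome separation until kinetochores, the protein assemblies on centromeres, are attached to microtubules, and BUBR1, BUB3 and MAD2 proteins belong to it. Kinesins are motors that move along microtubules, and the phragmoplast is the microtubule array that guides the new cell plate. GRF factors together with GIF1 promote cell proliferation in young leaves.

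The share of probe sets with a log2 signal of 4 or more ran from 60.2% to 60.7% over the 8 arrays. No probe set is listed for GIF1 or GRF3, so the transgenes were not used to check the labels. Of 31 tissue markers 4 had a listed probe set. The leaf primordium gene YAB3 had log2 signals between 8.40 and 8.89 and the leaf gene RCA between 14.1 and 14.7, whereas the meristem gene CLV3 and the root hair gene EXP7 stayed at or near the floor of the arrays, at most 2.12 and 2.19. None of the 6 flower markers had a listed probe set. In whole apices fewer dividing cells and less RNA per cell cannot be told apart.

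For AUR1 and AUR3 the genotype means lay closer together (0.18 and 0.28 from lowest to highest) than the arrays of the most divided genotype (0.37 and 0.79), while for AUR2 the means spanned 0.33 and the widest gap within a genotype was 0.30. AUR1 had log2 signals of 7.87 and 8.18 on the A and B arrays of 35S:GIF1, 8.12 and 8.04 in rGRF3, 7.82 and 8.01 in the double line, and 7.72 and 8.09 in Col-0. Its lowest and highest arrays were Col-0 A and 35S:GIF1 B, and Col-0 overlapped with every other genotype. The genotype means ran in the order rGRF3, 35S:GIF1, double line and Col-0, and no neighbours in this order were separated by their arrays.

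AUR2 had signals of 8.85 and 8.86 in 35S:GIF1, 8.68 and 8.38 in rGRF3, 8.76 and 8.60 in the double line, and 8.60 and 8.78 in Col-0. Both 35S:GIF1 arrays lay above all 6 others, and the share of all tested probe sets ordered in this way is not given here. In the order 35S:GIF1, Col-0, double line and rGRF3 the arrays separated only the first pair of neighbours, by a difference in means of 0.16. AUR1 and AUR2 are similar in sequence, and whether their probe sets hybridise with each other's transcripts was not tested.

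AUR3 had signals of 6.75 and 6.76 in 35S:GIF1, 7.36 and 6.56 in rGRF3, 6.82 and 6.54 in the double line, and 6.96 and 6.87 in Col-0. The 2 rGRF3 arrays differed by 0.79 and held the highest and the second lowest value of all, so the mean of rGRF3 (6.96 ± 0.56, SD, n = 2) describes neither. Both Col-0 arrays lay above both 35S:GIF1 arrays and above both arrays of the double line. The means ran in the order rGRF3, Col-0, 35S:GIF1 and double line, and only Col-0 and 35S:GIF1 were neighbours without overlap.

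Among the 6 genes only BUBR1, a checkpoint gene whose protein is related to the kinase BUB1, had genotypes all separated by their arrays. Its log2 signals were 5.93 and 6.01 in 35S:GIF1, 5.80 and 5.74 in rGRF3, 5.40 and 5.71 in the double line, and 5.83 and 5.83 in Col-0. No 2 neighbours in the order 35S:GIF1, Col-0, rGRF3 and double line overlapped, with differences in means of 0.14, 0.06 and 0.21. The A array of the double line was lowest of all 8. Col-0 and rGRF3 lay closest, at 5.83 and 5.80 on their A arrays. These differences did not pass the test described below. The share of all tested probe sets with all genotypes separated is not given here.

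BUB3.1, whose protein partners BUBR1 at kinetochores in other eukaryotes, had means within 0.056 of each other. It stood at 8.39 and 8.97 on the A and B arrays of 35S:GIF1, 8.53 and 8.77 in rGRF3, 8.49 and 8.77 in the double line, and 8.39 and 8.93 in Col-0. Every B array lay above every A array, and the share of all tested probe sets separated in this way is not given here.

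The kinesin AT4G14330 had log2 signals of 6.93 and 6.76 in 35S:GIF1, 7.08 and 6.39 in rGRF3, 6.59 and 6.60 in the double line, and 6.61 and 6.60 in Col-0. Both 35S:GIF1 arrays were above both Col-0 arrays and both arrays of the double line, while the 2 rGRF3 arrays were the highest and the lowest of all. The means ran in the order 35S:GIF1, rGRF3, Col-0 and double line, with overlap between all neighbours. As for AUR3, the difference within rGRF3 (0.70) was larger than any difference between genotype means (at most 0.25).

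**Figure D1:**
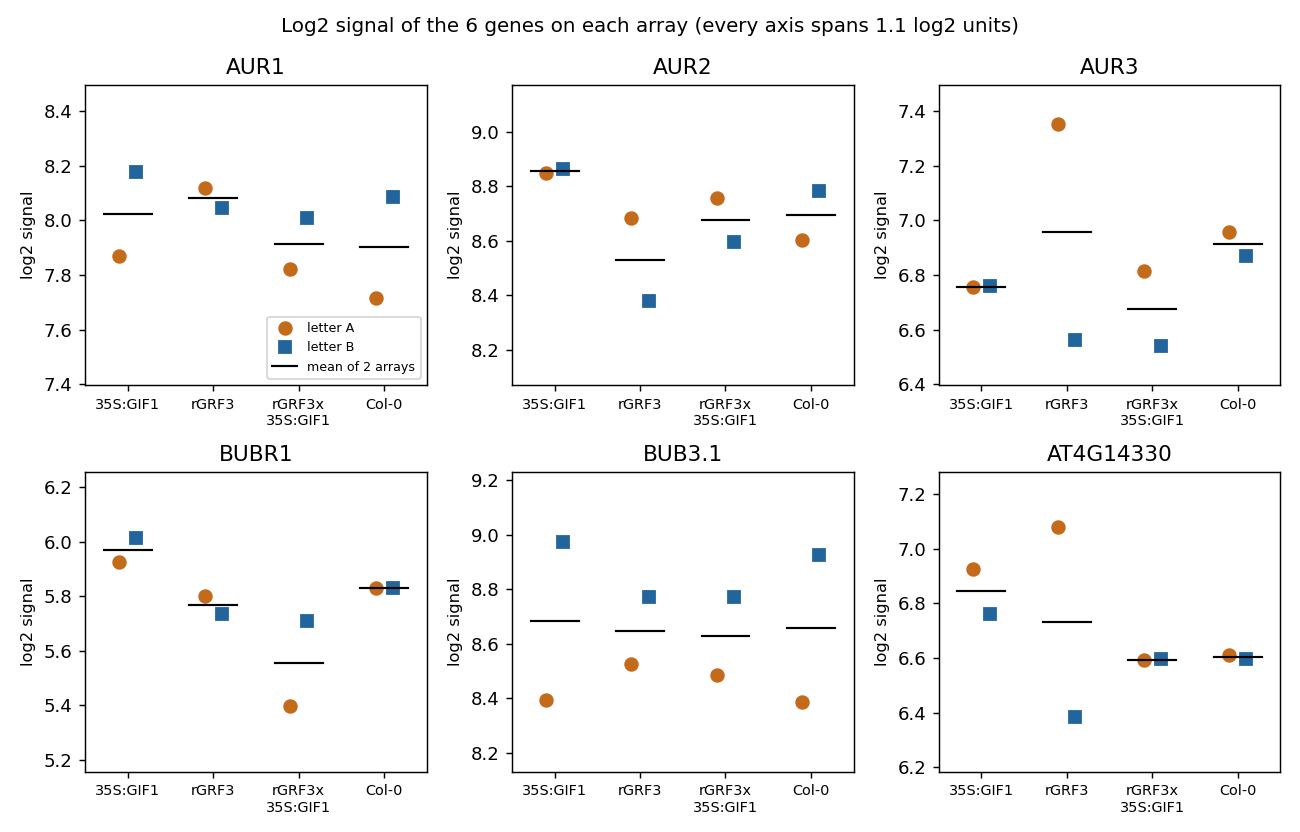
Log2 signal of the 6 genes (vertical axes, each spanning 1.1 log2 units) on the A arrays (circles) and B arrays (squares) of 35S:GIF1, rGRF3, the double line and Col-0, with the mean of 2 arrays as a bar. BUB3.1 is higher on every B array, and the rGRF3 arrays of AUR3 and AT4G14330 lie 0.79 and 0.70 apart.

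The plot of signals by genotype shows each of these values. Over all 8 arrays the standard deviation of the 6 genes had a median of 0.20, against 0.22 over all tested probe sets. AUR1 and AUR2 were less variable (each 0.16) and AUR3 most variable (0.26), and 30.6%, 30.6% and 61.5% of tested probe sets had a lower standard deviation than AUR1, AUR2 and AUR3. In their spread the genes thus lay within the bulk of the array.

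35S:GIF1 was set against Col-0 to ask which transcript levels go with the GIF1 overexpressor. Of the 6 genes 5 had a higher mean in 35S:GIF1 and AUR3 a lower one, where 47.9% of tested probe sets were higher, with a median log2 difference of 0.13, against -0.01 over all tested probe sets. None passed (limma's moderated test, Benjamini-Hochberg adjusted p of at most 0.05 over all tested probe sets), and none had an unadjusted p under 0.05. In this comparison 0.00714% of tested probe sets passed, also with the letter as a replicate block, and 1.41% had an unadjusted p under 0.05. AT4G14330 had the largest estimate, 0.24 (95% interval -0.33 to 0.81), followed by AUR2 at 0.16 (-0.23 to 0.55), BUBR1 at 0.14 (-0.22 to 0.50) and AUR1 at 0.12 (-0.34 to 0.58). The same 5 genes were higher on each letter, where 47.5% of tested probe sets were higher for A and 49.5% for B. AUR2, BUBR1 and AT4G14330 did not overlap between the genotypes and were higher in 35S:GIF1, as were 8.84% of tested probe sets. AUR3 did not overlap and was lower (-0.16, interval -0.81 to 0.50), as were 9.37%.

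rGRF3 was set against Col-0 to ask which transcripts differ with this form of GRF3. No member passed, with or without the replicate block, and none had an unadjusted p under 0.05, against 3.42% of tested probe sets. Over all tested probe sets 0% passed, and the block left this at 0%. The estimates ran between -0.16 for AUR2 (interval -0.55 to 0.23) and 0.18 for AUR1 (-0.28 to 0.64), with AUR3 at 0.04 (-0.61 to 0.70) and AT4G14330 at 0.13 (-0.44 to 0.70). For each gene but BUBR1 the estimate averages opposite signs on the A and B arrays. On the A arrays 5 of the 6 genes were higher in rGRF3 (median 0.27), among them AT4G14330 by 0.47, AUR1 by 0.40 and AUR3 by 0.40. On the B arrays all 6 were lower (median -0.18), among them AUR2 at -0.41, AUR3 at -0.31 and AT4G14330 at -0.21. Of all tested probe sets 46.3% were higher in rGRF3 on the A arrays and 52.9% lower on the B arrays. BUBR1 was lower on both letters (-0.03 and -0.10) without overlap, as were 13.5% of tested probe sets.

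The double line was set against Col-0 to ask which transcripts differ when both transgenes are present. The median log2 difference of the 6 genes was -0.02, against -0.01 over all tested probe sets, and 5 of the 6 had a lower mean, as had 51.5% of tested probe sets. None passed, and none had an unadjusted p under 0.05, against 6.44% of tested probe sets. The share that passed was 0.00714%, or 0.0357% with the replicate block, where no member passed either. BUBR1 had the largest estimate, -0.28 (interval -0.64 to 0.09, adjusted p = 0.817, or 0.338 with the block), with -0.43 for letter A and -0.12 for letter B. AUR3 followed at -0.24 (-0.89 to 0.42), and these 2 genes were lower in the double line without overlap, as were 16.1% of tested probe sets. AUR1 (0.01), AUR2 (-0.02), BUB3.1 (-0.03) and AT4G14330 (-0.0095) lay close to 0, with intervals as wide as -0.70 to 0.64 for BUB3.1. The estimates of AUR1 (0.11 and -0.08 for letters A and B), AUR2 (0.15 and -0.19) and BUB3.1 (0.10 and -0.16) average opposite signs. On the A arrays 3 of the 6 genes were higher in the double line (median 0.04), as were 49.8% of tested probe sets. On the B arrays all 6 were lower (median -0.14), as were 51.1%.

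**Figure D2:**
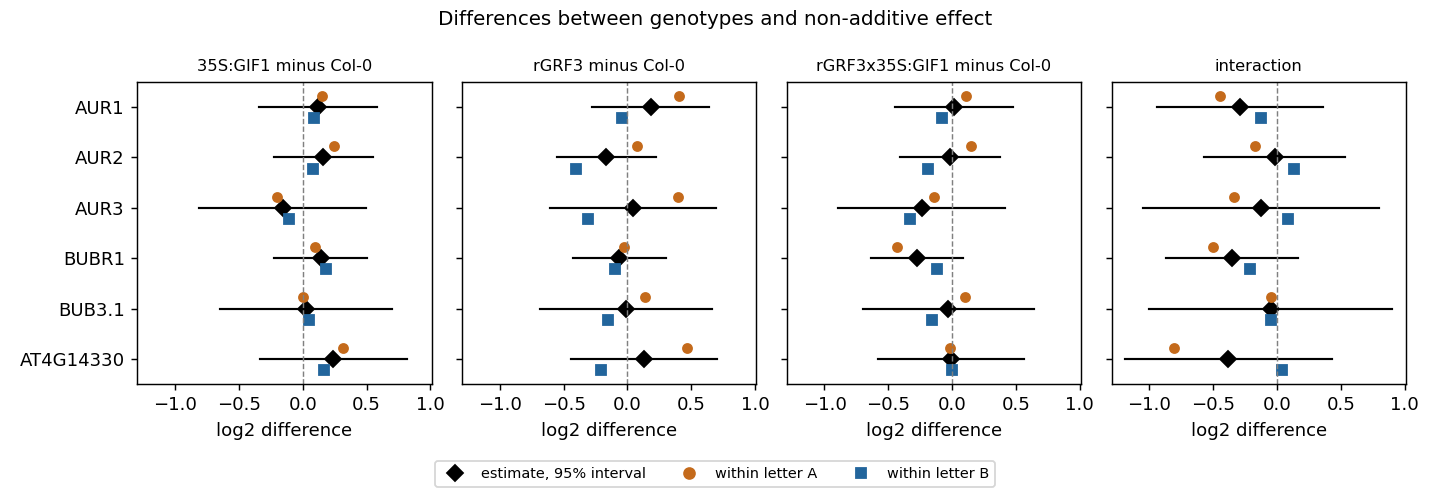
Log2 differences of the 6 genes (rows) for 35S:GIF1, rGRF3 and the double line, each minus Col-0, and for the non-additive effect. Diamonds with lines are limma's estimates with 95% intervals, circles the differences on the A arrays and squares those on the B arrays. Every interval shown includes 0, and in rGRF3 minus Col-0 5 of the 6 genes lie above 0 on the A arrays and none on the B arrays. In the double line minus Col-0 3 of the 6 lie above 0 on the A arrays and again none on the B arrays.

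As the plot of differences shows, all 18 intervals against Col-0 included 0. Their outermost bounds were 0.539-fold for AUR3 in the double line and 1.76-fold for AT4G14330 in 35S:GIF1, and differences inside a gene's own interval were not excluded by that fit. With the replicate block all 18 intervals again included 0, and that of BUB3.1 in the double line narrowed to -0.36 to 0.30. The 3 comparisons share the Col-0 arrays and are not independent of each other.

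Adding 35S:GIF1 to rGRF3 was tested by setting the double line against rGRF3. The genes had a median of -0.15, against 0.01 over all tested probe sets, and 5 of the 6 were lower in the double line, as were 46.9% of tested probe sets. None passed or had an unadjusted p under 0.05, against 0.00714% and 1.26% of tested probe sets, and with the replicate block 0.00714% passed and again no member. AUR3 (-0.28) and BUBR1 (-0.21) had the largest estimates, and AUR2 was higher (0.145, or 0.07 for letter A and 0.22 for letter B). AUR1 (-0.17) and BUBR1 were lower without overlap, as were 9.37% of tested probe sets. The median was -0.35 for letter A and -0.01 for letter B. AUR3 had -0.54 for letter A and -0.02 for letter B, and AT4G14330 had -0.49 and 0.21.

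Adding rGRF3 to 35S:GIF1 was tested by setting the double line against 35S:GIF1, and here all 6 genes had a lower mean in the double line, as did 49.7% of tested probe sets. The median was -0.14, against 0.00 over all tested probe sets. On the A arrays 4 of the 6 were lower (median -0.07), as were 47.8% of tested probe sets, while AUR3 (0.06) and BUB3.1 (0.09) were higher. On the B arrays all 6 were lower (median -0.21), as were 50.6%. BUBR1 was lowest, with 5.55 ± 0.22 in the double line and 5.97 ± 0.06 in 35S:GIF1 (SD, n = 2 each), giving a log2 difference of -0.42 (interval -0.78 to -0.05), with -0.53 between the A arrays and -0.30 between the B arrays. It was the only member with an unadjusted p under 0.05, and so it was under the replicate block. Of tested probe sets 2.53% had such a p without the block and 8.53% with it. With 2 arrays against 2, an exact permutation test of a single gene cannot give a two-sided p below 0.333. It did not pass over all tested probe sets (adjusted p = 1, or 0.575 with the block), and 0% of probe sets passed in either fit. AUR2 (-0.18), BUBR1 and AT4G14330 (-0.25) were lower without overlap, as were 14.6% of tested probe sets.

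The non-additive effect asks whether the double line departs from the sum of the single lines, and is what remains of the double line after both single-line differences are added to Col-0. All 6 estimates were below 0, as were 46.5% of tested probe sets, with a median of -0.21 against 0.02 over all. None passed, with or without the replicate block (0% of tested probe sets in both), and none had an unadjusted p under 0.05, against 0.878%. The largest estimates were -0.38 for AT4G14330 (interval -1.19 to 0.43), -0.35 for BUBR1 (-0.87 to 0.16) and -0.29 for AUR1 (-0.94 to 0.36). AT4G14330 was measured at 6.59 on the A array of the double line, where the single lines and Col-0 add up to 7.40, and at 6.60 on the B array, where they add up to 6.55. Its effect was thus -0.80 for letter A and 0.04 for letter B, and the estimate of -0.38 became -0.03 without the rGRF3 A array and -0.73 without the rGRF3 B array.

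BUBR1 was measured at 5.40 and 5.71 on the A and B arrays of the double line, where the additive values were 5.90 and 5.92. Its effect was below 0 on both letters, at -0.50 and -0.21. AUR1 also kept its sign (-0.45 and -0.13), and BUB3.1 had -0.04 and -0.05, while AUR2 (-0.17 and 0.14) and AUR3 (-0.34 and 0.09) changed sign. The median over the 6 genes was -0.39 for letter A and -0.0028 for letter B. The interaction draws on the same Col-0, single line and double line arrays as the comparisons above, and is no separate evidence.

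The letters separated BUB3.1 more than any genotype did. Its log2 signal averaged 8.86 ± 0.11 on the B arrays and 8.45 ± 0.07 on the A arrays (SD, n = 4 each), a difference of 0.41 (standard error 0.10, interval 0.18 to 0.64) or 1.33-fold, which passed in limma's fit with genotype (adjusted p = 0.0283). It was the only one of the 6 genes to pass, where 24.6% of all tested probe sets passed and 11.8% passed as higher on B. BUB3.1 was higher on B in all 4 genotypes, as were 22.3% of tested probe sets, by 0.58 in 35S:GIF1, 0.25 in rGRF3, 0.28 in the double line and 0.54 in Col-0. The call ended without any 1 of the 8 arrays (adjusted p between 0.0528 and 0.126), without a filter on low signal (0.0913) and in an ordinary linear model (0.0967), while the estimate stayed between 0.36 and 0.47.

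The other 5 genes did not pass between the letters. AUR1 had a difference of 0.20 (interval -0.05 to 0.44, adjusted p = 0.201) and was higher on B in 3 of 4 genotypes, the exception being rGRF3 (-0.075). AUR3 had -0.29 (-0.64 to 0.07, adjusted p = 0.197), the mean of 0.006 in 35S:GIF1, -0.79 in rGRF3, -0.28 in the double line and -0.09 in Col-0. AT4G14330 had -0.22 (-0.55 to 0.12, adjusted p = 0.284), the mean of -0.16, -0.70, 0.002 and -0.02 in the same order. AUR2 (-0.07) and BUBR1 (0.08) were near 0.

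**Figure D3:**
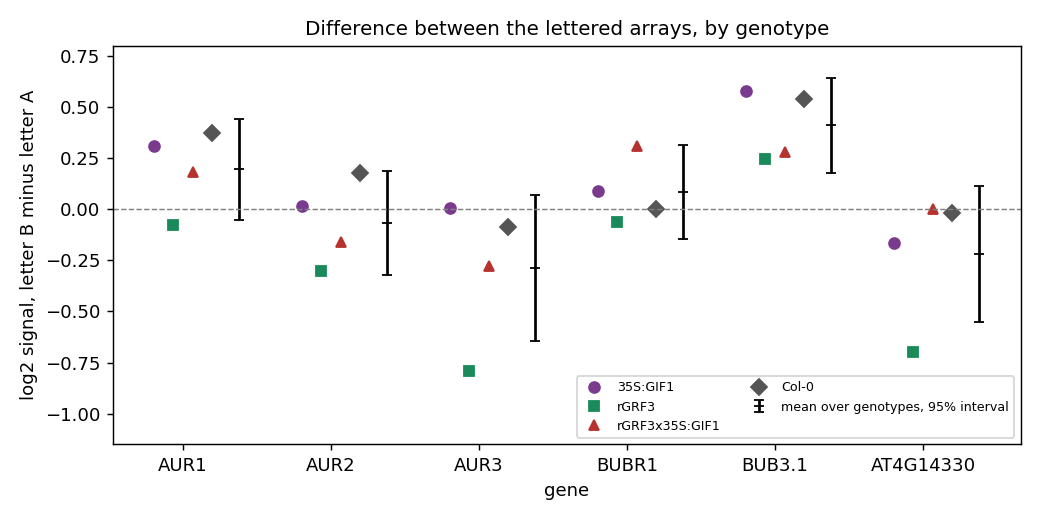
Log2 signal on the B array minus that on the A array for the 6 genes (horizontal axis) in 35S:GIF1 (circles), rGRF3 (squares), the double line (triangles) and Col-0 (diamonds), with the mean over genotypes and its 95% interval in black. BUB3.1 lies above 0 in all 4 genotypes. For each of the 6 genes rGRF3 has the lowest value, with no share over all tested probe sets given.

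In the plot of letter differences rGRF3 stood lowest for each of the 6 genes, for BUB3.1 narrowly (0.25, against 0.28 in the double line). The share of all tested probe sets with rGRF3 lowest is not given here. In rGRF3 5 of the 6 were lower on the B array (median -0.19), against 1 of 6 in 35S:GIF1 (0.05), 2 of 6 in the double line (0.09) and 2 of 6 in Col-0 (0.09). Over all tested probe sets 51.1% were lower on the B array of rGRF3, with a median of -0.0080. This pattern was noticed after the values were seen, each genotype has 1 array per letter, and it was not tested.

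Other genes of division were described from 6 lists written from general knowledge of their loci, with few members that the annotation names. Of 20 genes of the spindle checkpoint and the anaphase-promoting complex (the ubiquitin ligase that the checkpoint restrains) 4 were tested, of 13 kinetochore and chromosomal passenger genes 4, of 24 genes of cytokinesis 3, of 27 other kinesins 17, of 19 genes of DNA replication 1, and of 24 cyclins, cyclin-dependent kinases and regulators of mitotic entry 0. In none of the 5 comparisons between genotypes and not in the interaction did any of these 29 genes pass, with or without the replicate block. In the double line against Col-0 the list medians were -0.09 for the checkpoint, -0.16 for kinetochores, 0.12 for cytokinesis and 0.04 for kinesins, against -0.01 over all tested probe sets.

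Among the checkpoint relatives, the listed gene AT1G69400 had a difference of 0.21 between the double line and Col-0, and BUB3.2, a paralogue of BUB3.1, one of -0.21. Among kinetochore genes HTR12, which encodes the centromeric histone H3, had a difference of -0.34 and AT3G54630 one of -0.23. Among cytokinesis genes KEU, which encodes the KEULE protein of cell plate formation, had 0.45 and FU, a FUSED kinase gene, had 0.12. Among kinesins AT2G28620 had -0.63, with 6.17 and 6.01 in the double transgenic arrays, against 6.48 and 6.96 on those of the wild type, and AT3G45850 had 0.36. PRL, the MCM7 subunit of the replicative helicase, had -0.42. None of these differences passed (adjusted p between 0.758 and 0.967). These are the largest differences of each list and give no direction for it: among the other kinetochore genes WYR, which encodes an INCENP relative, had 0.21.

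Between the letters 7 of the 29 listed genes passed in limma's fit with genotype, a share of 24.1% that is close to the 24.6% of all tested probe sets. BUB3.2 was higher on B by 0.97 (standard error 0.15, adjusted p = 0.00889), with signals of 4.74 to 4.97 on the B arrays and 3.302 to 4.15 on the A arrays, near the filter. HTR12 was higher on B by 0.55 (adjusted p = 0.0151), PRL by 0.82 (0.0168) and the kinesin AT3G10180 by 0.84 (0.00520). The kinesins AT4G38950 (-0.66, adjusted p = 0.0171), AT2G21300 (-0.43, 0.0220) and AT3G45850 (-0.40, 0.0273) were lower on B. Kinesins thus passed in both directions. Of the checkpoint list AT1G69400 had -0.20 and AT5G05510 -0.22, so its members did not share the sign of BUB3.1 and BUB3.2.

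**Figure D4:**
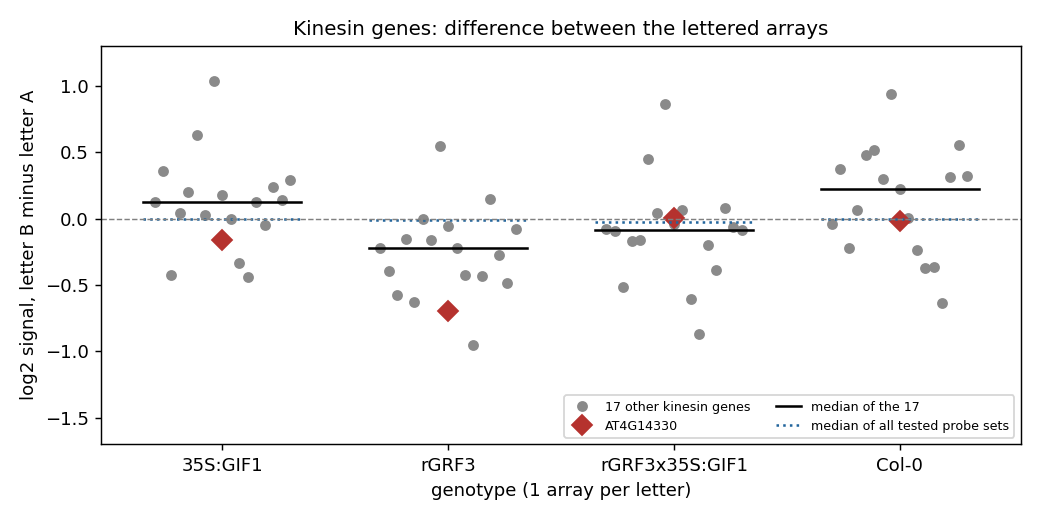
Log2 signal on the B array minus that on the A array (vertical axis) for AT4G14330 (diamonds) and 17 other kinesin genes (circles) in each genotype, with the median of the 17 (solid line) and of all tested probe sets (dotted line). In rGRF3 15 of the 17 lie below 0 and their median is -0.23.

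The plot of kinesins sets AT4G14330 beside the genes of the kinesin list. In rGRF3 15 of the 17 other kinesins were lower on the B array (median -0.23), against 5 of 17 in 35S:GIF1 (0.13), 12 of 17 in the double line (-0.09) and 6 of 17 in Col-0 (0.22). Over all tested probe sets the share lower on B was 51.1% in rGRF3, 49.9% in 35S:GIF1, 53.6% in the double line and 49.98% in Col-0. KINESIN-12B, a phragmoplast kinesin kept in the cytokinesis list and so not among the 17, was higher on the B array of rGRF3 (0.09). AT4G14330 lay at -0.70 in rGRF3, below all but AT4G38950 (-0.96). The other lists differed in sign in rGRF3. Lower on B were 0 of 4 kinetochore genes (median 0.25) and 0 of 1 replication gene (0.33). In the checkpoint list 3 of 4 were lower (-0.19), and in the cytokinesis list 2 of 3 (-0.14). These counts compare single arrays, were made after the values were seen and were not tested.

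Genes with the most similar pattern over the 8 arrays were sought among 7492 other tested genes by Pearson's correlation, given as a measure of likeness over arrays that share letters and genotypes. Between pairs of the 6 genes r ran from -0.37 (AUR3 and BUB3.1) to 0.79 (AUR1 and BUB3.1), so their mean is no pattern common to all. The mean pattern of the 6 genes was highest on rGRF3 A (0.16 above its mean) and 35S:GIF1 B (0.15). It was lowest on the double line's A array (-0.13) and rGRF3 B (-0.12). AT3G11830 (r = 0.96), AT2G43260 (0.95), AT3G62870 (0.95), AT5G14370 (0.94) and AT1G71900 (0.93) were closest to it. The closest gene was GAPC2 for AUR1 (0.96), AT3G24490 for AUR2 (0.93), PAC for AUR3 (0.98), AT5G08060 for BUBR1 (0.95), AT4G36180 for BUB3.1 (0.99) and AT4G19510 for AT4G14330 (0.93). PAC, like AUR3, was highest on rGRF3 A (9.03) and lowest on the B arrays of rGRF3 (8.52) and the double line (8.50). AT4G36180, like BUB3.1, was higher on every B array (8.83 to 9.14) than on any A array (8.20 to 8.36). PAC and AT4G36180 were picked as the closest of 7492 genes, so this likeness follows from the choice and is no separate finding.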

How the data were processed

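The deposited values are log2 signals per probe set, 1 column per array, and GCRMA and limma are named for them per the submitters' processing notes. Versions and a genome build are not given in the sources used here. Col-0 columns carry 9 decimals and the others 3. A separate processing of the Col-0 arrays cannot be told apart from genotype. Arrays were counted as not overlapping after rounding to 3 decimals. The number of arrays limits the precision.

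Probe sets with exactly 1 listed gene (13513, 13436 of them found in the TAIR10.1 gene table through their Entrez identifiers) were named, 503 had several genes and 8730 had none listed. The 64 control probe sets were left out. Other probe sets reaching a log2 signal of 4 on 2 or more arrays were fitted with limma 3.58.1 (no trend, not robust) in R 4.3.3, over all 8 arrays, and p-values were adjusted over all tested probe sets within each of 7 comparisons and called at 0.05. The script was tested on simulated data with no letter effect and with shifts larger than any difference of the members. That test does not cover differences of the size reported here. Plots used Python 3.11.15 and matplotlib 3.10.9.

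The labels do not say that the letters mark separate plants, so p-values cover the spread between these arrays alone, and it may be technical. The letters pair the arrays in the data and not by a label: the A minus B differences of all 6 pairs of genotypes correlated across probe sets at 0.59 to 0.75. Genotype results come from the fit without the letter, which counts the difference between letters as spread. Alternatives were the letter as a replicate block, other filters, other variance models, quantile normalization and fits without single arrays. Named genes are the members, per list the 2 largest differences in the double line against Col-0 and any that passed, and the 5 genes most like the members' mean and 1 per member. For a gene with several probe sets the one with the highest mean was taken. Members and lists were chosen with earlier results of these data known.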

Additional observations from a re-analysis of the deposited data

How the results depend on the processing

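No member passed between genotypes or for the interaction in any of the 570 fits over 36 results (limma, lowest adjusted p = 0.338), and no setting other than leaving out an array turned a direction. The replicate block changed no call of a member and gave 5 calls over all tested probe sets in the double line against Col-0, where the fit without it gave 1. Without a filter the counts were 0 for 35S:GIF1, 1 for rGRF3 and 0 for the double line against Col-0, 3 for the double line against rGRF3, 2 against 35S:GIF1 and 1069 between the letters (main 3439). The ordinary linear model gave 0 for 35S:GIF1 against Col-0, 1 for the double line against 35S:GIF1 and 419 between the letters. The arrays of the compared groups alone gave 0 where 1 had passed. Leaving out 1 array gave 0 to 1 for 35S:GIF1 against Col-0, 0 to 0 for the double line against Col-0 or rGRF3, and 1063 to 2634 between the letters. The letter call of BUB3.1 (0.41) ended without a filter and in the ordinary linear model at the same estimate, and without any 1 array at 0.36 to 0.47. The cause was not tested.

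Between genotypes, fits without 1 array of a compared genotype set both letters of one genotype against 1 of another. The lone array is assumed to vary like the others. Between the letters, such a fit rests on the remaining genotypes, and leaving out A or B of a genotype gave the same estimate. Directions turned as follows. AUR1 ran from -0.065 to 0.31 in 35S:GIF1, -0.0048 to 0.37 in rGRF3 and -0.17 to 0.20 in the double line against Col-0, and from -0.26 to 0.047 in the double line against 35S:GIF1. AUR2 ran from -0.11 to 0.071 in the double line against Col-0, -0.0070 to 0.30 against rGRF3, -0.17 to 0.14 for the interaction and -0.15 to 0.012 between the letters. AUR3 ran from -0.35 to 0.44 in rGRF3 against Col-0, -0.68 to 0.11 in the double line against rGRF3, -0.22 to 0.058 against 35S:GIF1 and -0.52 to 0.27 for the interaction. BUB3.1 ran from -0.26 to 0.32 in 35S:GIF1, -0.28 to 0.26 in rGRF3 and -0.30 to 0.24 in the double line against Col-0, -0.16 to 0.12 against rGRF3, -0.35 to 0.23 against 35S:GIF1 and -0.34 to 0.24 for the interaction. AT4G14330 ran from -0.22 to 0.48 in rGRF3 against Col-0 and -0.49 to 0.21 in the double line against rGRF3. Its interaction kept its sign but ran from -0.73 to -0.03. BUBR1 kept its direction in every such fit, with -0.57 to -0.26 in the double line against 35S:GIF1. For genotype pairs this outcome was fixed, as its genotypes did not overlap and leaving out 1 array cannot turn such a difference.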
